A study of Mus musculus with 93 samples.

Results

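In the ovarian follicle the oocyte is enclosed by layers of somatic granulosa cells. The comparison described here sets granulosa cells from wild type mice at 6 months against granulosa cells from wild type mice at 4 weeks, across all genes. The libraries were chosen by cell type, genotype and age in the sample titles alone: 12 libraries of the 6 month group and 7 of the 4 week group, together 19 of the 93 libraries of a mouse series on the loss of Esr2, the gene of estrogen receptor beta. Of the 93 libraries, 42 are granulosa libraries, in 6 groups of genotype and age. The groups set beside the 19 are granulosa cells from knock-out mice (Esr2 knockout) at 6 months (6 libraries) and at 4 weeks (7 libraries), and granulosa cells from wild type mice at 7 weeks (5 libraries). The labels give the ovary as the tissue and name no strain, cycle stage, hormone treatment, litter, or number of cells or animals behind a library. The p-values therefore measure the spread between libraries, part of which may be technical. Each age was deposited as a count table of its own, so age and table cannot be told apart in any value below.

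In a growing follicle, granulosa cells divide under follicle stimulating hormone, which acts through the receptor Fshr, and convert androgens into estradiol with aromatase (Cyp19a1). After the surge of luteinizing hormone, which acts through Lhcgr, they stop dividing, luteinize and make progesterone from cholesterol, which they synthesize or take up from lipoproteins. Estrogen receptor beta is the main estrogen receptor of granulosa cells. At 4 weeks a mouse is near puberty, and at 6 months it is an adult.

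The 6 month libraries held 826031 to 5083133 counts on genes and the 4 week libraries 1413787 to 6469427 (medians 4127537 and 2918457), with 13969 to 17028 and 14534 to 18466 genes detected. Neither measure differed past the test (exact permutation test over all 50388 draws of 7 of 19 libraries, two-sided; adjusted p = 0.403 for the log2 total and 0.271 for genes detected). Levels below are counts per 1000000 (CPM) after scaling by the trimmed mean of M-values (TMM). The granulosa markers Inha, an inhibin subunit, and Foxl2, a transcription factor of granulosa cells, had counts in all 19 libraries. The steroid enzyme Cyp17a1, a marker of theca cells, had no counts in the 6 month libraries and at most 1.37 per 1000000 in a 4 week library. A gene that a table leaves out for its low total is counted here as 0. Of the other theca and stroma markers, Insl3 had counts in 6 of the 12 libraries at 6 months (at most 2.57 per 1000000) and in none at 4 weeks. Aldh1a1, Star and Mgp had counts in all 19 libraries. The 4 week library with replicate number 6 carried oocyte RNA: its 14 listed oocyte markers summed to 872 per 1000000 of its counts, while the other 18 libraries lay between 8.30 and 39.9 per 1000000. The oocyte share was 18.6 ± 8.16 per 1000000 at 6 months and 149 ± 319 per 1000000 at 4 weeks (SD, n = 12 and 7). Of the 14 markers, Zp1, Zp2 and Zp3 have a row in the 4 week table alone, so no test of this sum is given. The summed surface epithelium markers were 732 ± 253 per 1000000 at 6 months and 481 ± 110 per 1000000 at 4 weeks (adjusted p = 0.0584, exact permutation test with adjustment over 11 marker lists), and 8 lists, of granulosa, mural granulosa, cumulus, theca and stroma, smooth muscle, endothelial, immune and erythroid markers, had adjusted p of 0.739 to 0.832 in the same test. The theca and stroma sum and the endothelial sum were tested although they also hold markers with no counts at one age, entered as 0. These were Cyp17a1, Flt1, Tie1 and Vwf at 6 months, and Ogn, Insl3 and Plvap at 4 weeks. On the first 2 principal components the 4 week libraries 3 and 5 lay farthest out. The median correlation between libraries (Pearson, log2 of CPM plus 1, across genes) was 0.938 among the 6 month libraries, 0.878 among the 4 week libraries and 0.899 between the groups.

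Of 14307 genes tested, 1144 differed between 6 months and 4 weeks at an adjusted p under 0.05 (8.0%; edgeR quasi-likelihood test with Benjamini-Hochberg adjustment). At 6 months 454 genes were higher (3.17%) and 690 lower (4.82%), and 611 of the 1144 changed at least 2-fold, 168 higher and 443 lower. The median log2 fold change over all genes tested was -0.03. All 12 libraries of the 6 month group lay above all 7 libraries of the 4 week group for 25 genes (0.175%) and below them for another 25 genes (0.175%). Without 4 week replicate 7 the count was 674, the lowest with any 1 library left out. Without the 4 week libraries 3, 5 and 6 it was 335, of which 310 had been called in the same direction, and 1137 of the 1144 genes kept their sign. Genes called higher at 6 months were shorter than genes called lower, with a median exonic length of 2619 bases against 5468 bases, and 4149 bases over all genes tested. The tilt of a library with gene length, the correlation of a gene's deviation with its log length, ran from -0.316 to 0.153 in the 6 month libraries and from -0.0577 to 0.313 in the 4 week libraries (exact permutation test, p = 0.0322, adjusted p = 0.129). With a length trend removed from each library, 959 genes were called, 847 of them among the 1144 and in the same direction.

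The genes with the smallest p among those that fell included Greb1, a gene first described as induced by estrogen (chromosome 12, 16670615 to 16800886, minus strand, GRCm38). Its lowest, median and highest levels were 204, 242 and 377 CPM in the 6 month libraries, against 459, 663 and 1158 CPM in the 4 week libraries, so the groups did not overlap (log2 fold change -1.46 ± 0.17 (SE), adjusted p = 3.89e-07). Genes of 2 potassium channels fell without overlap. Kcnma1, the large-conductance calcium-activated channel, had 9.71, 20.5 and 34.2 CPM at 6 months, against 43.4, 117 and 186 CPM at 4 weeks (-2.30 ± 0.28, adjusted p = 6.84e-07), and Kcnk3, a background leak channel, changed by -1.86 ± 0.26, adjusted p = 9.97e-06. Tenm3, an adhesion receptor, had 3.14, 6.71 and 8.59 CPM at 6 months, against 16, 26.4 and 55 CPM at 4 weeks (-2.25 ± 0.26, adjusted p = 3.89e-07). Htra3, a secreted serine protease, had 10.2, 18.2 and 32.6 CPM at 6 months, against 37.2, 91.2 and 174 CPM at 4 weeks (-2.34 ± 0.33, adjusted p = 1.22e-05). The groups did not overlap for these genes either. Lower levels at 6 months were also called for Smoc1, a secreted calcium-binding protein (-1.71 ± 0.21), Sfrp2, a secreted modulator of Wnt signalling (-1.62 ± 0.21), and Prss35, a protein of the serine protease family (-1.60 ± 0.21). Gnao1, a G protein alpha subunit, changed by -1.58 ± 0.23. Lpl, which releases fatty acids from lipoproteins, had 17.1, 59 and 79.7 CPM at 6 months, against 95.6, 192 and 261 CPM at 4 weeks (-1.66 ± 0.26, adjusted p = 5.81e-05), and Me1, a malic enzyme that makes NADPH, changed by -1.01 ± 0.15. Lpl and Me1 did not overlap between the groups.

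**Figure D1:**
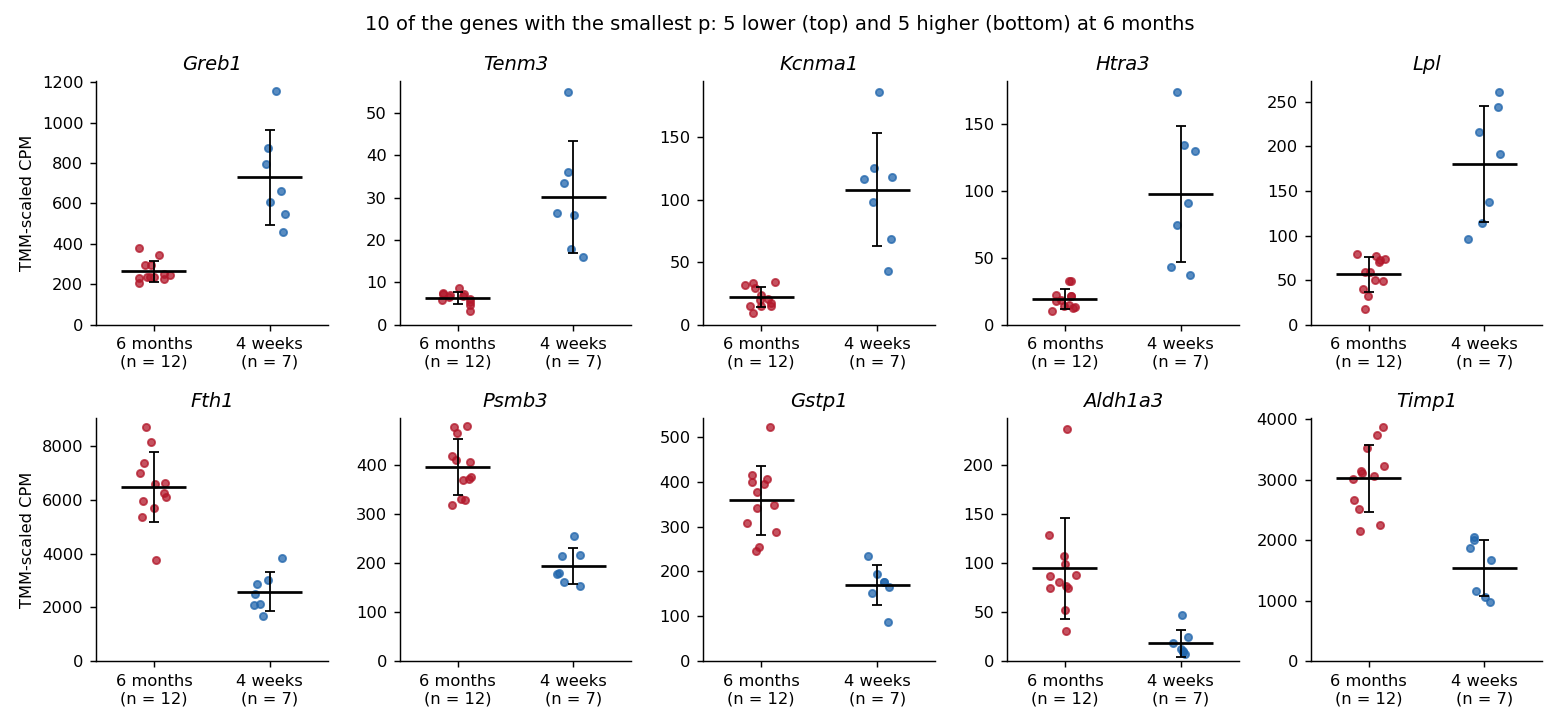
TMM-scaled CPM of 10 genes in the 12 libraries of wild type granulosa cells at 6 months (left) and the 7 at 4 weeks (right); each point is a library, the thick line the mean and the error bar 1 SD. For Greb1, Tenm3, Kcnma1, Htra3 and Lpl every 6 month library lies below every 4 week library, and for Psmb3, Gstp1 and Timp1 every one lies above.

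The genes with the smallest p among those that rose included Fth1, the heavy chain of the iron store ferritin, which had 3758, 6405 and 8683 CPM at 6 months, against 1681, 2504 and 3829 CPM at 4 weeks (log2 fold change 1.32 ± 0.19 (SE), adjusted p = 9.97e-06). Gstp1, a glutathione transferase, had 247, 362 and 520.3 CPM at 6 months, against 88, 176 and 233 CPM at 4 weeks, with no overlap (1.08 ± 0.17, adjusted p = 7.89e-05). Gstp1 has a near-identical neighbouring copy, between which the counting could have split reads, and Fth1 has many processed pseudogenes. Steap1, of a family of metal reductases, changed by 1.77 ± 0.27. Psmb3, a subunit of the proteasome core, had 319.8, 392 and 480.3 CPM at 6 months, against 153, 181 and 255 CPM at 4 weeks (1.03 ± 0.16, adjusted p = 5.81e-05), and Timp1, an inhibitor of matrix proteases, had 2155, 3086 and 3883 CPM at 6 months, against 977, 1672 and 2053 CPM at 4 weeks (0.97 ± 0.18, adjusted p = 0.000684). Neither gene overlapped between the groups. Aldh1a3, an enzyme that makes retinoic acid, had 31.2, 84.1 and 237 CPM at 6 months, against 8.05, 12.6 and 46.9 CPM at 4 weeks; the ranges overlapped, and every 6 month library lay above the 4 week median (2.33 ± 0.40, adjusted p = 0.00023). Fabp5, a fatty acid binding protein, changed by 1.38 ± 0.20, Acot7, an acyl-CoA thioesterase, by 1.26 ± 0.22, and the transcription cofactor Lbh by 1.25 ± 0.22.

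Most genes of cholesterol synthesis rose. Of 26 tested genes of cholesterol synthesis and uptake, 17 were higher at 6 months and 1 was lower, against 3.17% and 4.82% of all genes, and their median log2 fold change was 1.14, against -0.03 over all genes. Acat2, which joins acetyl groups at the first step, had 83.7, 182 and 368 CPM at 6 months, against 18, 25.1 and 140.4 CPM at 4 weeks (2.15 ± 0.42, adjusted p = 0.00136). All 12 libraries of the 6 month group lay above the 4 week median, and the ranges overlapped. The enzymes that turn mevalonate into the activated isoprene followed: Mvk (1.39 ± 0.31), Pmvk (1.31 ± 0.25), Mvd (1.68 ± 0.31) and Idi1 (2.33 ± 0.64). Fdps, which joins isoprenes into farnesyl diphosphate, had 1109, 1892 and 2714 CPM at 6 months, against 654, 922 and 1387 CPM at 4 weeks (0.94 ± 0.18, adjusted p = 0.00118), and Fdft1, the squalene synthase, changed by 0.89 ± 0.27, adjusted p = 0.0317.

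Among the genes of the later steps, which close and trim the sterol ring, Cyp51, the lanosterol demethylase (chromosome 5, 4081145 to 4104746, minus strand, GRCm38), had 162, 242 and 482 CPM at 6 months, against 34.9, 69 and 134 CPM at 4 weeks (1.92 ± 0.31, adjusted p = 9.6e-05). It was the only member of the list for which every 6 month library lay above every 4 week library. Lss, the lanosterol synthase, had 53.1, 107 and 204 CPM at 6 months, against 7.6, 46.3 and 53.9 CPM at 4 weeks (1.62 ± 0.30, adjusted p = 0.000552). Sqle, the squalene epoxidase, changed by 1.48 ± 0.34, Nsdhl by 1.49 ± 0.34, Ebp by 0.89 ± 0.18 and Tm7sf2 by 0.80 ± 0.23, all called higher. Stard4, a carrier of sterols within the cell, changed by 1.14 ± 0.29, adjusted p = 0.0105. The member that fell was Hsd17b7, a keto-reductase of sterol synthesis that also makes estradiol from estrone, with 45.6, 96.5 and 151 CPM at 6 months, against 70.1, 198 and 268 CPM at 4 weeks (-0.97 ± 0.25, adjusted p = 0.0108). The other 8 members did not pass, among them Hmgcs1 (0.65 ± 0.26, adjusted p = 0.119), Insig1, a brake on the pathway (1.14 ± 0.40, adjusted p = 0.0648), and Srebf2, the transcription factor that drives it (0.31 ± 0.15, adjusted p = 0.195). Scarb1, the receptor for high density lipoprotein, had a log2 fold change of -0.28 ± 0.27, adjusted p = 0.569.

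The list had 15 to 18 genes called higher when any 1 of the 19 libraries was left out, and 17 with the length trend removed. Without the 4 week libraries 3, 5 and 6 it held 7 genes called higher, with a median log2 fold change of 1.13. In the knockout libraries, 22 of the 26 genes were higher and none lower at 6 months than at 4 weeks (over all genes, 13.8% were called there and 6.58% were higher), with a median log2 fold change of 1.60. Of these genes the change differed between the genotypes past the test for Fdps alone, with a knockout minus wild type difference of 1.16 ± 0.27 (adjusted p = 0.0256). The 9-letter motif TCACNCCAC, a core of the sterol response element, was looked for on both strands of RefSeq promoter windows (GRCm38.p6, 250 bases before to 50 after the start of the transcript). It was found in 1 of the 17 list genes with a window, Hmgcs1, and in 1.35% of the 10264 tested genes with a window.

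**Figure D2:**
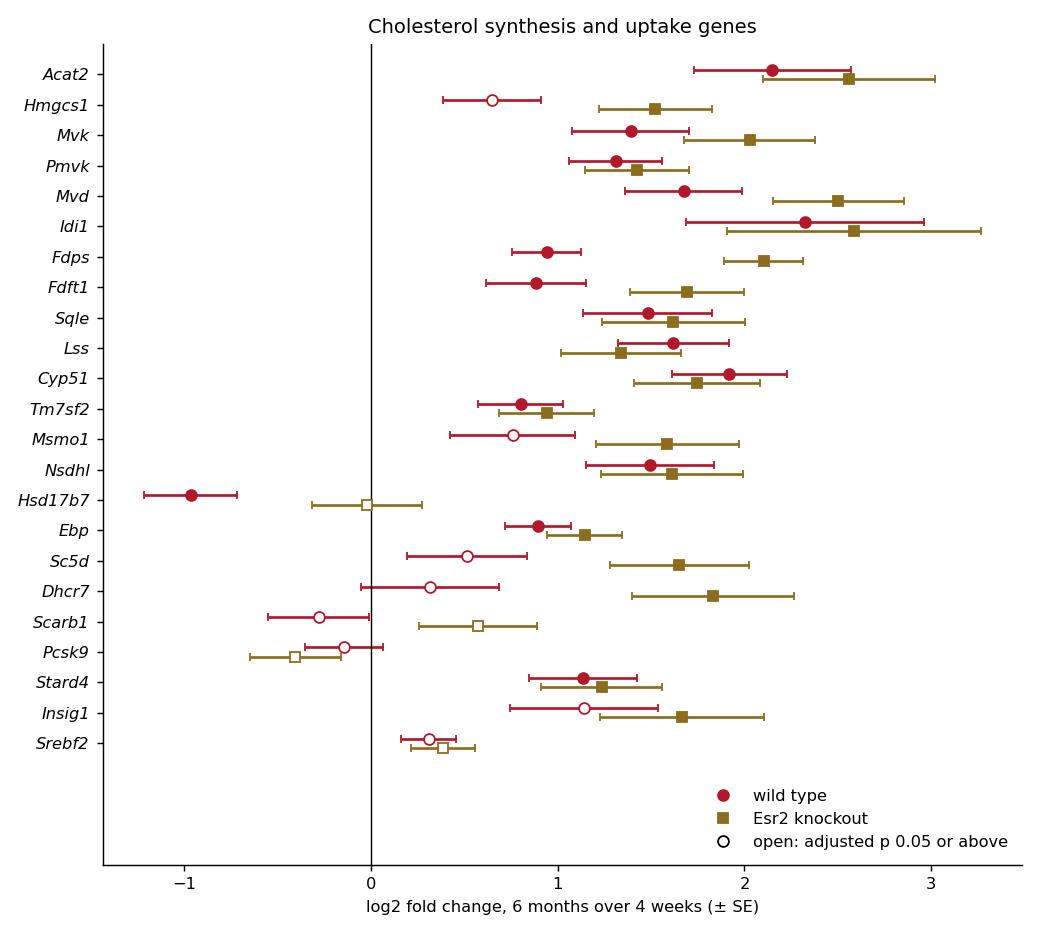
Log2 fold change, 6 months over 4 weeks, of 23 genes of cholesterol synthesis and uptake in pathway order, with standard errors, in wild type (circles, 12 against 7 libraries) and Esr2 knockout granulosa libraries (squares, 6 against 7); open symbols did not pass the test. In wild type 14 genes lie to the right of 0 with filled symbols, and Hsd17b7 lies to the left.

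Of the hormone receptors of the follicle, Esr2, Fshr and Oxtr fell and none of those described here rose. Esr2 (chromosome 12, 76120419 to 76177259, minus strand, GRCm38) had 5.66, 11.5 and 18.7 CPM in the 6 month libraries, against 11.2, 34.6 and 34.9 CPM in the 4 week libraries (log2 fold change -1.31 ± 0.26 (SE), adjusted p = 0.00229). Every 6 month library lay below the 4 week median, and 1 library of the 4 week group, replicate 5, reached into the 6 month range. Esr2 had no counts in any knockout library of these ages. Esr1, the gene of estrogen receptor alpha, had 6.87, 14.7 and 55.6 CPM at 6 months, against 6.15, 16.9 and 37.5 CPM at 4 weeks, and did not pass (0.12 ± 0.40, adjusted p = 0.893). Fshr had 0.859, 12.5 and 21.5 CPM at 6 months, against 3.1, 26.1 and 53.2 CPM at 4 weeks (-1.20 ± 0.37, adjusted p = 0.0326), a call lost without 4 week replicate 4, 6 or 7 in turn (highest adjusted p = 0.117). Lhcgr had 5.97, 20.1 and 35 CPM at 6 months, against 18, 42.5 and 91.8 CPM at 4 weeks; every 6 month library lay below the 4 week median, and the test was not passed (-1.07 ± 0.38, adjusted p = 0.0719). Oxtr, the oxytocin receptor, changed by -1.27 ± 0.32, adjusted p = 0.00919, a call lost without 4 week replicate 7 (adjusted p = 0.058).

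Of 32 tested genes of granulosa identity and the response to follicle stimulating hormone, 3 rose and 4 fell, against 3.17% and 4.82% of all genes, with a median log2 fold change of 0.02. Without 4 week replicate 7 the counts were 1 higher and 2 lower, and without 4 week replicate 3 or 6 or 6 month replicate 10, 1 was higher. Those that fell included Greb1 and Igf1r, the receptor for insulin-like growth factors (-0.84 ± 0.19, adjusted p = 0.00401). Igf1, one of its ligands and a partner of follicle stimulating hormone in granulosa cells, had 19.5, 46.5 and 84.7 CPM at 6 months, against 6.2, 26.2 and 33.9 CPM at 4 weeks (1.11 ± 0.28, adjusted p = 0.0101). The call for Igf1 was lost without the 4 week libraries 3, 5 and 6 (0.98, adjusted p = 0.101). Inha (-0.09 ± 0.35, adjusted p = 0.906), Foxl2 (-0.28 ± 0.33, adjusted p = 0.657) and Cyp19a1 (0.16 ± 0.44, adjusted p = 0.865) did not pass. Of 12 tested steroid receptors and cofactors 2 fell, Esr2 among them, and none rose, against 4.82% lower over all genes.

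Steroid synthesis was split. Of 20 tested genes, 4 rose and 4 fell, against 3.17% and 4.82% of all genes. The higher calls numbered 2 without 4 week replicate 7, and 0 by edgeR without the 4 week libraries 3, 5 and 6 (4 higher at an unadjusted p under 0.05). Hsd3b1, which converts pregnenolone to progesterone, had 1699.6, 2628 and 4038 CPM at 6 months, against 3261, 5454 and 9580.3 CPM at 4 weeks (-1.15 ± 0.21, adjusted p = 0.00055), and every 6 month library lay below the 4 week median. Hsd3b1 has close relatives in sequence, among which reads may have been split. Akr1c14, an enzyme that breaks down progesterone and other steroids, had 18.4, 49.5 and 83.8 CPM at 6 months, against 66.3, 98.5 and 182 CPM at 4 weeks (-1.29 ± 0.25, adjusted p = 0.00118). Star, which carries cholesterol into the mitochondrion, went the other way, with 347, 754 and 1742 CPM at 6 months, against 189.6, 308 and 772 CPM at 4 weeks (1.16 ± 0.29, adjusted p = 0.0105). The call for Star was lost without the 4 week libraries 3, 5 and 6 (0.95, adjusted p = 0.153). Cyp11a1, which cuts the side chain of cholesterol, had 1632, 4211 and 5949.5 CPM at 6 months, against 1383, 4919 and 8863 CPM at 4 weeks and did not pass (-0.44 ± 0.34, adjusted p = 0.469), nor did Akr1c18, the main enzyme of progesterone breakdown (0.23 ± 0.29, adjusted p = 0.69). Among 8 luteal markers the summed share of counts was 5416 ± 904 per 1000000 at 6 months and 9348 ± 2876 per 1000000 at 4 weeks (SD, n = 12 and 7). The difference was -0.75 on the log2 scale (exact permutation test, p = 3.175e-04, adjusted p = 0.00349 over 11 marker lists), with 12 of 12 libraries of the 6 month group below the 4 week median. Hsd3b1 and Oxtr were the 2 of the 8 that fell. Hsd3b1 was the largest member of the sum, with a median of 2502 per 1000000 at 6 months and 6113 per 1000000 at 4 weeks. The median of the whole sum was 5548 per 1000000 at 6 months and 9341 per 1000000 at 4 weeks. Sfrp4 had a median of 1263 per 1000000 at 6 months and 1382 at 4 weeks, Scarb1 979 at 6 months and 1092 at 4 weeks, Prlr 169 at 6 months and 229 at 4 weeks, and Parm1 487 at 6 months and 386 at 4 weeks, and none of these passed. In bulk libraries, fewer cells of a type and less RNA per cell cannot be told apart. A longer list, of luteal genes and the response to luteinizing hormone, went both ways. Of its 18 tested genes 3 rose, Star among them, and Hsd3b1 and Oxtr fell, against 3.17% and 4.82% of all genes. Its median log2 fold change was -0.13. In the knockout libraries 9 of the 18 rose and 1 fell, with a median of 0.81 (6.58% of all genes rose there and 7.19% fell).

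**Figure D3:**
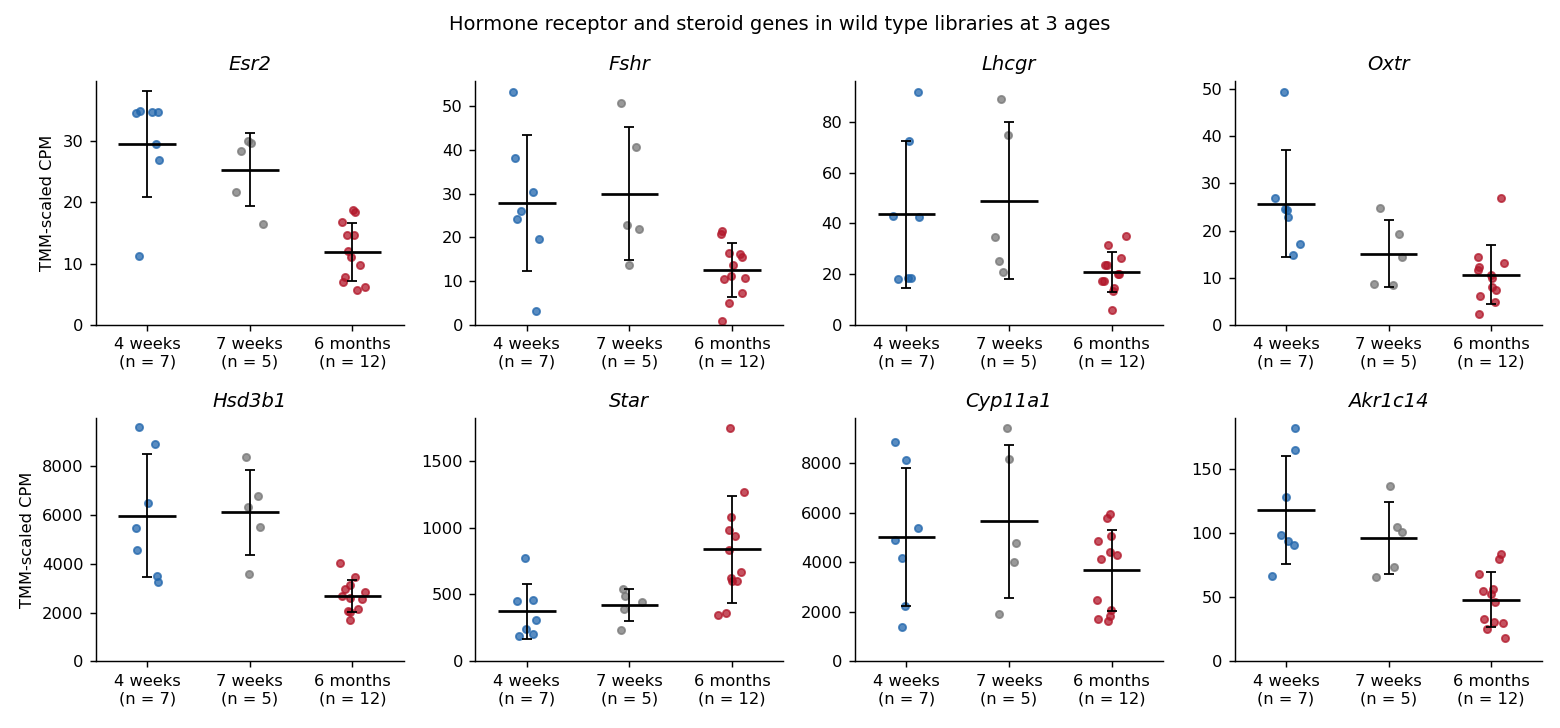
TMM-scaled CPM of 8 hormone receptor and steroid genes in wild type granulosa libraries at 4 weeks (7 libraries), 7 weeks (5) and 6 months (12); points are libraries, the thick line the mean and the error bar 1 SD. Esr2 averaged 29.5 ± 8.69 CPM at 4 weeks, 25.3 CPM at 7 weeks and 11.9 ± 4.71 CPM at 6 months, and Star was highest at 6 months.

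Of the genes of the response to the ovulatory surge 3 of 20 tested rose and none fell, against 3.17% higher over all genes, and without the 4 week libraries 3, 5 and 6 edgeR called none of the 20 (3 at an unadjusted p under 0.05, all higher). Btc, an epidermal growth factor-like ligand that relays luteinizing hormone, had 59.8, 123 and 209 CPM at 6 months, against 10.7, 29 and 87.4 CPM at 4 weeks (1.75 ± 0.39, adjusted p = 0.00347). Il6, a cytokine made by cumulus cells at ovulation, changed by 2.23 ± 0.64, adjusted p = 0.0244, and Snap25, a fusion protein of secretory vesicles, by 1.76 ± 0.54, adjusted p = 0.0359. Of 25 tested genes of the exchange between granulosa cells and oocyte, 1 rose and 2 fell, against 3.17% and 4.82% of all genes. Slc38a3, an amino acid transporter of cumulus cells, had 0.286, 2.23 and 8.73 CPM at 6 months, against 4.53, 23 and 36.2 CPM at 4 weeks, with overlapping ranges (-2.65 ± 0.49, adjusted p = 0.000608). Pde5a, which breaks down cGMP, changed by -1.19 ± 0.26, adjusted p = 0.00285. Gucy1a1, a subunit of the guanylate cyclase that makes cGMP, rose without overlap, at low levels, with 4.27, 5.7 and 13.4 CPM at 6 months, against 0, 2.59 and 3.56 CPM at 4 weeks (1.46 ± 0.37, adjusted p = 0.00912). The summed cumulus and mural granulosa markers did not differ past the test (adjusted p = 0.739 for both lists, exact permutation test).

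Genes of the interferon response were called in 1 direction, lower at 6 months. Interferons act through transcription factors that include the interferon regulatory factors, which switch on sensors and effectors of defence against viruses. Of 32 tested genes 10 fell and none rose, against 4.82% and 3.17% of all genes, and the median log2 fold change was -0.91. Both cytosolic RNA sensors of the list fell. Ifih1 (MDA5) had 5.92, 13.9 and 27.3 CPM at 6 months, against 23.6, 33.1 and 46.9 CPM at 4 weeks (-1.17 ± 0.25, adjusted p = 0.00251), and Ddx58 (RIG-I) had 6.87, 13.7 and 31.4 CPM at 6 months, against 25.4, 44 and 47.6 CPM at 4 weeks (-1.35 ± 0.28, adjusted p = 0.00215). For both genes every 6 month library lay below the 4 week median, and the ranges overlapped. The interferon regulatory factors Irf7 (-1.56 ± 0.50, adjusted p = 0.0452) and Irf9 (-0.90 ± 0.26, adjusted p = 0.0278) fell, and both had overlapping ranges. Among the effectors, Ifi27 changed by -0.99 ± 0.19, adjusted p = 0.000911, Bst2, which tethers virus particles, by -1.10 ± 0.27, adjusted p = 0.00688, and Oasl2 by -1.33 ± 0.30, adjusted p = 0.00411. Gbp7 and Oas2 were also called lower. Ifit1 did not pass (0.48 ± 0.87, adjusted p = 0.789). It had 23.6 and 34.3 CPM in 6 month replicates 3 and 4, and at most 3.08 CPM in the other 6 month libraries. At 4 weeks it had at most 7.16 CPM. Replicates 3 and 4 also had the highest 6 month levels of Irf7 (93.7 and 105.6 CPM) and Irf9 (102.5 and 120.8 CPM), within the 4 week ranges of these genes.

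The list had 7 to 14 genes called lower when 1 library at a time was left out, and 4 without the 4 week libraries 3, 5 and 6; none was called higher in any of these. In the knockout libraries 17 of the 32 fell and none rose (7.19% of all genes fell there), with a median log2 fold change of -1.62. The sum of 15 listed immune markers did not differ past the test: it was 1712 ± 1644 per 1000000 at 6 months and 1218 ± 671 per 1000000 at 4 weeks (SD, n = 12 and 7; log2 difference 0.12, exact permutation p = 0.832, also after adjustment). The promoter windows of these genes were searched for the core of the interferon-stimulated response element, GAAA followed after any 2 bases by another GAAA, on both strands. Of the 23 list genes with a RefSeq window (GRCm38.p6), 14 (60.9%) held it, against 3.59% of the 10264 tested genes with a window, and 4 of the 14 were among the 10 that fell. These 4 windows are printed 5′ to 3′ on the strand of the gene, with the matches in capitals, to show where the motif lies; the transcript starts after the first 250 bases. The long capital run in Bst2 holds overlapping matches, and in Ddx58 and Gbp7 the match is on the opposite strand.
Ifih1 (chr2:62646206-62646505, minus strand): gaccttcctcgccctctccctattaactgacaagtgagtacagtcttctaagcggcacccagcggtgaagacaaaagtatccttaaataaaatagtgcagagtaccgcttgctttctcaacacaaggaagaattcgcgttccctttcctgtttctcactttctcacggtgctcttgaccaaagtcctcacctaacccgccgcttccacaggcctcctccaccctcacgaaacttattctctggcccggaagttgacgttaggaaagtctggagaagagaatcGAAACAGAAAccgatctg
Ddx58 (chr4:40239776-40240075, minus strand): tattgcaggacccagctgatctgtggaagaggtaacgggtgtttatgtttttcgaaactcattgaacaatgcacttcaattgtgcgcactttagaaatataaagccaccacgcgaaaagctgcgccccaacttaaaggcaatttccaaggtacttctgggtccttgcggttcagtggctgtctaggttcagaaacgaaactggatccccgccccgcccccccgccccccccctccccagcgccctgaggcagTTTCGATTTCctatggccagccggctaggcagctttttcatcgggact
Bst2 (chr8:71537423-71537722, minus strand): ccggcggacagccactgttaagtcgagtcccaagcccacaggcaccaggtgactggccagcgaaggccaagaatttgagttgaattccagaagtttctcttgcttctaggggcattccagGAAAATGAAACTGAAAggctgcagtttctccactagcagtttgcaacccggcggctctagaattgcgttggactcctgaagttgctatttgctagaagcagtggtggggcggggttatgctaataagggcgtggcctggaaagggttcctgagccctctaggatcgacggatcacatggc
Gbp7 (chr3:142530086-142530385, plus strand): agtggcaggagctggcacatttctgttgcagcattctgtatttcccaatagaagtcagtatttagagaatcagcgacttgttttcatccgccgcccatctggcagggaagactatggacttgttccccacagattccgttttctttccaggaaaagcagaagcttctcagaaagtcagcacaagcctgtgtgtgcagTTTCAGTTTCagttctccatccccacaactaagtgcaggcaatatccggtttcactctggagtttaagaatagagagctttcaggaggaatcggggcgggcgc
Counted from the first base of the transcript, the match begins at base 33 in Ifih1 and base 3 in Ddx58, and at -130 in Bst2 and -53 in Gbp7. These are matches of letters, and no binding was measured.

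The called genes of antigen presentation moved in both directions by class. Of 23 tested, 6 rose and 5 fell, against 3.17% and 4.82% of all genes. The other 12 did not pass, and the median log2 fold change of the list was 0.05. Those that fell serve the class I route, by which cells show peptides from their own proteins: the peptide transporters Tap1, with 10.3, 19.3 and 42.3 CPM at 6 months, against 32.7, 60.4 and 74.7 CPM at 4 weeks (-1.34 ± 0.25, adjusted p = 0.000608), and Tap2 (-1.56 ± 0.42, adjusted p = 0.0186), the immunoproteasome subunit Psmb8 (-0.72 ± 0.23, adjusted p = 0.0412), and the class I heavy chains H2-T23 (-0.86 ± 0.27, adjusted p = 0.0424) and H2-Q4 (-1.87 ± 0.56, adjusted p = 0.0298). Class I heavy chains are near-identical, so reads may have been split between them. H2-Q4 was near the floor, with at most 1.22 CPM at 6 months and 2.73 CPM at 4 weeks. The 5 calls became 1 without 4 week replicate 4, 2 without 4 week replicate 6, and 3 without 4 week replicate 7 or without 6 month replicate 2, 7, 8, 9, 10 or 11. Those that rose were all of the class II route, by which specialised immune cells show peptides they have taken up. H2-Eb1 had 14.8, 52.1 and 255 CPM at 6 months, against 3.75, 6.2 and 21.8 CPM at 4 weeks (3.10 ± 0.51, adjusted p = 0.000181). Cd74, the invariant chain, had 45, 169.6 and 961 CPM at 6 months, against 12.3, 27.1 and 125 CPM at 4 weeks (2.92 ± 0.63, adjusted p = 0.00335). H2-Aa changed by 3.08 ± 0.63, H2-Ab1 by 1.69 ± 0.33, H2-DMa by 1.75 ± 0.50 and H2-DMb1 by 2.18 ± 0.67. Without the 4 week libraries 3, 5 and 6 the whole list had 5 calls, namely Tap1, H2-Eb1, H2-Ab1, H2-Aa and Cd74.

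B cell genes moved with the class II genes. Of 9 tested B cell markers, a list added after the data were seen, 6 were higher at 6 months (3.17% of all genes) and none lower. Cd79a, a chain of the B cell receptor complex, had 2.35, 12.2 and 109.7 CPM at 6 months, against 0, 1.02 and 5.78 CPM at 4 weeks (3.71 ± 0.78, adjusted p = 0.00253), and Ms4a1, the surface protein CD20, had 0.906, 5.63 and 53.4 CPM at 6 months, against 0, 0.496 and 3.56 CPM at 4 weeks (3.69 ± 0.97, adjusted p = 0.0127). The summed share of the 16 listed markers was 28.7 to 1073 per 1000000 in the 6 month libraries, with a median of 148, and 5.26 to 83.1 per 1000000 in the 4 week libraries, with a median of 17.8. All 12 libraries of the 6 month group lay above the 4 week median, and replicates 4 and 6 held the most, 970 and 1073 per 1000000. Ighd, Fcmr and Iglc1 had counts in the 6 month table and were not listed in the 4 week table, which leaves out genes with a total under about 5 counts, so no test of the sum is given. With the B cell share as a covariate none of the 6 class II genes passed (H2-Eb1 1.15, adjusted p = 0.0664; Cd74 0.54, adjusted p = 0.485). That share itself moved with age and sums genes with no row in the 4 week table, so the covariate overlaps with age. Calls lost or kept under it therefore do not tell B cell content from age. Without 6 month libraries 4 and 6, H2-Eb1 kept its call (2.41, adjusted p = 3.326e-04) and so did Cd74 (2.13, adjusted p = 0.0122), H2-Aa and H2-Ab1, while H2-DMa (1.07, adjusted p = 0.133), H2-DMb1 (1.91, adjusted p = 0.0738) and Ms4a1 (2.74, adjusted p = 0.0554) lost theirs. Under the B cell covariate Tap1 (-1.47, adjusted p = 0.00629) and Ifih1 (-1.49, adjusted p = 0.00657) kept their calls. So did Psmb8, Ddx58, Ifi27, Oasl2, Bst2, Gbp7, Irf9 and Oas2. Irf7 (-2.24, adjusted p = 0.0539), H2-T23 (-0.95, adjusted p = 0.126) and H2-Q4 (-1.69, adjusted p = 0.188) lost theirs.

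**Figure D4:**
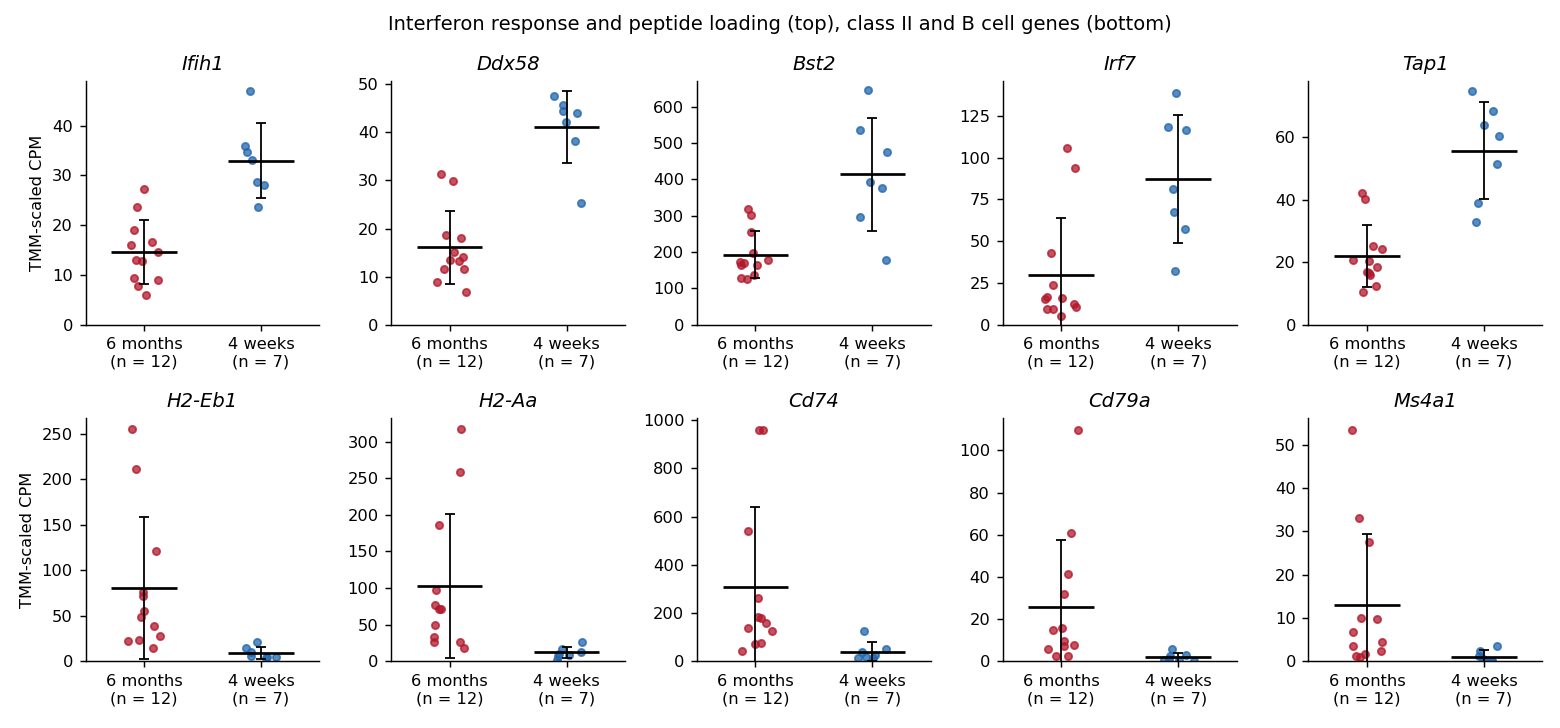
TMM-scaled CPM of 5 genes of the interferon response and class I peptide loading (top) and 5 class II and B cell genes (bottom) in wild type granulosa libraries at 6 months (left, 12 libraries) and 4 weeks (right, 7 libraries); points are libraries, the thick line the mean and the error bar 1 SD. The top genes are lower and the bottom genes higher at 6 months, where a few libraries reach far above the rest.

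Mitosis genes were called in 1 direction, higher at 6 months. Of 33 tested mitosis genes 7 rose and none fell, against 3.17% higher over all genes, and all 33 had a positive log2 fold change, with a median of 0.54. Prc1, which organises the spindle midzone, had 63.6, 78 and 106 CPM at 6 months, against 34.9, 47.2 and 71.5 CPM at 4 weeks (0.69 ± 0.15, adjusted p = 0.00328). Anln, a protein of the cleavage ring, had 25.5, 60.9 and 72.4 CPM at 6 months, against 13, 28.5 and 49.9 CPM at 4 weeks (0.89 ± 0.20, adjusted p = 0.00374). Ndc80, of the kinetochore (0.98 ± 0.25), Ube2c, of the anaphase promoting machinery (0.76 ± 0.20), Birc5 (0.70 ± 0.19), the spindle motor Kif11 (0.83 ± 0.23) and the kinase Cdk1 (0.57 ± 0.19) were the others. The ranges of the groups overlapped for all 7. Without 4 week replicate 2, 13 of the 33 were called higher, and without the 4 week libraries 3, 5 and 6 edgeR called none (9 at an unadjusted p under 0.05, all higher), with a median of 0.41. Of 32 tested genes of S phase 2 rose, 6.25% against 3.17% of all genes, namely Prim1, a primase subunit (1.01 ± 0.31, adjusted p = 0.0341), and Pcna, the replication clamp (0.59 ± 0.19, adjusted p = 0.0477). In the list of cell cycle inhibition and senescence 3 of 23 genes rose (13.0%, against 3.17% of all genes), namely Timp1, Il6 and Cdkn2b. Cdkn2b, an inhibitor of cyclin-dependent kinases, had 19.5, 25.1 and 37.9 CPM at 6 months, against 5.08, 11.6 and 21.7 CPM at 4 weeks (1.11 ± 0.30, adjusted p = 0.0182). That list had 6 genes called higher without 4 week replicate 2, and 1 without the 4 week libraries 3, 5 and 6, where Cdkn2b (adjusted p = 0.129) and Il6 (adjusted p = 0.144) did not pass.

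Of 39 tested antioxidant and glutathione genes, 7 rose and none fell, against 3.17% higher over all genes, with a median log2 fold change of 0.37. Beside Fth1 and Gstp1 these were the peroxiredoxins Prdx2, with 1369, 1699 and 2383 CPM at 6 months, against 892, 992 and 1164 CPM at 4 weeks and no overlap (0.75 ± 0.14, adjusted p = 0.000873), and Prdx1 (0.52 ± 0.17), the glutathione transferases Gstm5 (0.77 ± 0.19) and Gstm2 (1.30 ± 0.38), and the mitochondrial superoxide dismutase Sod2 (0.57 ± 0.17). Without the 4 week libraries 3, 5 and 6 the calls numbered 3. Scaling by relative log expression or by the upper quartile left 6 and 7 members called higher, and each called 1 member lower. Of 56 nuclear genes of oxidative phosphorylation 8 rose and none fell, against 3.17% higher over all genes, and 53 had a positive log2 fold change, with a median of 0.27. Ndufs8, of complex I, had 202, 252 and 325 CPM at 6 months, against 107, 175 and 187 CPM at 4 weeks, with no overlap (0.63 ± 0.15, adjusted p = 0.00558). With the length trend removed 2 passed and the median was 0.15. The calls numbered 3 without 4 week replicate 6 or 7, 5 without 4 week replicate 3 or 6 month replicate 4 or 7, and 1 without the 4 week libraries 3, 5 and 6. Of 53 tested cytosolic ribosomal protein genes 3 rose (5.66%, near the 3.17% higher over all genes), and 1 passed with the length trend removed. In that list 25 of the 78 genes were in none of the rows tested, and ribosomal protein genes have many processed pseudogenes. The calls were 5 without 4 week replicate 1 or 2.

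Among genes of glycolysis and the response to low oxygen, 3 of 31 rose and 1 fell, against 3.17% and 4.82% of all genes. Hif1a, the oxygen-regulated transcription factor subunit, had 590.4, 896 and 1345 CPM at 6 months, against 249.9, 460.2 and 741 CPM at 4 weeks (1.00 ± 0.20, adjusted p = 0.00139). Ndrg1, a target of that pathway, had 254, 390.3 and 516 CPM at 6 months, against 87.2, 130.3 and 352 CPM at 4 weeks (1.16 ± 0.24, adjusted p = 0.00202), and Egln1, the hydroxylase that marks Hif1a for destruction, changed by 0.93 ± 0.29, adjusted p = 0.0379. The glycolytic enzyme Eno2, at low level, changed by -2.03 ± 0.55, adjusted p = 0.0156. The list had 5 genes called higher without 4 week replicate 2 and 0 by edgeR without the 4 week libraries 3, 5 and 6 (3 higher at an unadjusted p under 0.05), where Hif1a had an adjusted p of 0.0894, Ndrg1 of 0.0944 and Egln1 of 0.285.

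Matrix genes were called in 1 direction, lower at 6 months. Of 38 tested genes of matrix and basement membrane, 7 fell and none rose, against 4.82% lower over all genes, and 33 had a negative log2 fold change, with a median of -0.36. Col6a2, a chain of collagen VI, had 1.17, 3.97 and 7.33 CPM at 6 months, against 7.12, 11.8 and 30.9 CPM at 4 weeks (-1.97 ± 0.34, adjusted p = 0.000228). Lama1, a laminin chain of basement membranes, had 100, 137 and 168 CPM at 6 months, against 154, 225 and 364 CPM at 4 weeks (-0.74 ± 0.18, adjusted p = 0.00585). Thbs1, a matrix protein that restrains vessel growth, changed by -1.09 ± 0.24, adjusted p = 0.00386, and Fbn1, a microfibril protein, by -1.46 ± 0.33, adjusted p = 0.00395; Hspg2, Col4a5 and Lamb2 were the other calls. Every 6 month library lay below the 4 week median for Col6a2, Lama1, Thbs1 and Fbn1, and 4 of the 38 genes were called lower without the 4 week libraries 3, 5 and 6. Of 27 proteases and inhibitors 2 fell, Mmp11 (-1.24 ± 0.32, adjusted p = 0.0126) and Mmp15 (-1.20 ± 0.36, adjusted p = 0.0285), and 2 rose, Timp1 and Plaur, the receptor for urokinase (0.92 ± 0.28, adjusted p = 0.0324). Over all genes 4.82% fell and 3.17% rose.

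In the TGF-beta family, which carries signals between oocyte and granulosa cells, 6 of 36 tested genes fell and 1 rose, against 4.82% and 3.17% of all genes, with a median of -0.21; without the 4 week libraries 3, 5 and 6, 4 fell and none rose. Tgfb3, a ligand, had 5.06, 8.44 and 17.1 CPM at 6 months, against 12.7, 18.3 and 27.3 CPM at 4 weeks (-1.11 ± 0.21, adjusted p = 0.000853). The inhibitory Smad7 changed by -0.92 ± 0.24, adjusted p = 0.0115 and Fstl1, a secreted binding protein, by -0.81 ± 0.21, adjusted p = 0.0107, while Smad3, which relays activin and TGF-beta signals, rose (0.72 ± 0.18, adjusted p = 0.00688). Of 27 Wnt and R-spondin genes 4 fell and none rose, against 4.82% lower over all genes. They were Sfrp2, the receptor-removing ligase Znrf3 (-0.98 ± 0.22, adjusted p = 0.00352), the coreceptor Lrp5 (-1.38 ± 0.40, adjusted p = 0.0245) and the transcription factor Tcf7l2 (-0.67 ± 0.20, adjusted p = 0.03). Without 4 week replicate 7, 2 Wnt and R-spondin genes fell. Of 31 genes of insulin and growth factor signalling 3 fell, against 4.82% of all genes, and Igf1 alone rose, against 3.17%. Those that fell were Igf1r, the adaptor Grb14 (-1.03 ± 0.23, adjusted p = 0.00401) and Irs1 (-1.23 ± 0.39, adjusted p = 0.0402). Without the 4 week libraries 3, 5 and 6 the growth list had 2 calls, Igf1r and Grb14. In the Hippo list of 24, Ptpn14 (-1.08 ± 0.28, adjusted p = 0.0127) and Vgll4 (-0.96 ± 0.26, adjusted p = 0.0187) fell and Birc5 and Ankrd1 (2.31 ± 0.63, adjusted p = 0.016) rose, 2 each way, against 4.82% and 3.17% of all genes. None of the 24 was called by edgeR without the 4 week libraries 3, 5 and 6 (adjusted p of 0.101 to 0.191 for these 4; 2 higher and 5 lower at an unadjusted p under 0.05).

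Of 14 tested genes known for high activity in fetal and growing tissues 3 fell and none rose, against 4.82% lower over all genes. Mdk, the growth factor midkine, had 0, 0.237 and 1.38 CPM at 6 months, against 3.23, 5.58 and 8.7 CPM at 4 weeks, with no overlap (-3.75 ± 0.64, adjusted p = 0.000228). Hmga2, a chromatin protein of growing tissue, had 0.242, 2.71 and 5.25 CPM at 6 months, against 3.56, 7.2 and 35.6 CPM at 4 weeks (-2.28 ± 0.46, adjusted p = 0.00175), and Igf2bp3, an RNA-binding protein, changed by -2.04 ± 0.66, adjusted p = 0.0446. Of 18 imprinted growth genes Peg3 (-1.20 ± 0.25, adjusted p = 0.00225) and Zdbf2 (-2.01 ± 0.64, adjusted p = 0.0405) fell, 11.1% against 4.82% of all genes. A negative log2 fold change was found for 15 of the 18, with a median of -0.47. Mdk, Igf2bp3 and Zdbf2 had medians under 1 CPM at 6 months. Among 43 chromatin genes 4 fell, including the remodelling subunits Chd3 (-1.10 ± 0.24, adjusted p = 0.00305) and Smarca2 (-0.59 ± 0.15, adjusted p = 0.0108), and Hmgn2, a nucleosome-binding protein, rose (0.69 ± 0.18, adjusted p = 0.0115). The called share of that list was 11.6%, against 8.0% of all genes.

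Of 32 complement and inflammation genes 3 rose and 3 fell, against 3.17% and 4.82% of all genes. The lower calls numbered 1 without 4 week replicate 7. Without the 4 week libraries 3, 5 and 6 edgeR called 0 higher and 1 lower (6 higher and 5 lower at an unadjusted p under 0.05). Il33, an alarm cytokine, had 57, 102 and 222 CPM at 6 months, against 0, 4.89 and 49.8 CPM at 4 weeks and no overlap (3.10 ± 0.72, adjusted p = 0.00579), a call lost without the 4 week libraries 3, 5 and 6 (2.53, adjusted p = 0.101). Cd55, which protects cells from complement, rose without overlap (1.32 ± 0.31, adjusted p = 0.00528), while C1s1, a complement protease, fell (-1.36 ± 0.34, adjusted p = 0.00954). Of 31 immediate early genes 2 fell, Egr2 (-1.39 ± 0.30, adjusted p = 0.00264) and Zfp36 (-1.26 ± 0.33, adjusted p = 0.0126). That share, 6.45%, is near the 4.82% lower over all genes. Of 16 clock genes 3 fell (18.75%, against 4.82% of all genes), Rora (-0.60 ± 0.16, adjusted p = 0.0152), Cry2 (-0.75 ± 0.21, adjusted p = 0.0186) and Nr1d1 (-1.72 ± 0.52, adjusted p = 0.0335). A single clock gene was called without 4 week replicate 4 or 7, and also without the 4 week libraries 3, 5 and 6. Of 33 lysosome and autophagy genes Ctsf, a cathepsin, fell (-1.24 ± 0.26, adjusted p = 0.00215), and of 12 genes of the Sertoli cell and sex determination Ptgds, at low level, fell (-1.85 ± 0.54, adjusted p = 0.0251). These calls were 3.03% and 8.33% of their lists, against 4.82% lower over all genes. Hsp90aa1 (0.58 ± 0.19, adjusted p = 0.0412) was the 1 call among 21 heat shock genes and Asns (0.96 ± 0.29, adjusted p = 0.0301) the 1 call among 27 genes of endoplasmic reticulum stress; both rose. These shares lie near or below the 8.0% called over all genes, and neither gene passed without the 4 week libraries 3, 5 and 6.

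The 3 remaining lists had no call by edgeR. Among 28 genes of DNA damage response and repair, 5 had an unadjusted p under 0.05, and DESeq2 called 3 and limma voom 1. Among 26 genes of atresia and apoptosis the counts were 3, 1 and 0, and among 16 Notch and Hedgehog genes 3, 0 and 0. The smallest adjusted p in these lists belonged to Parp1 (-0.48 ± 0.16, adjusted p = 0.06), Bcl2l1 (-0.64 ± 0.23, adjusted p = 0.0736) and Gli2 (-1.95 ± 0.76, adjusted p = 0.102).

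**Figure D5:**
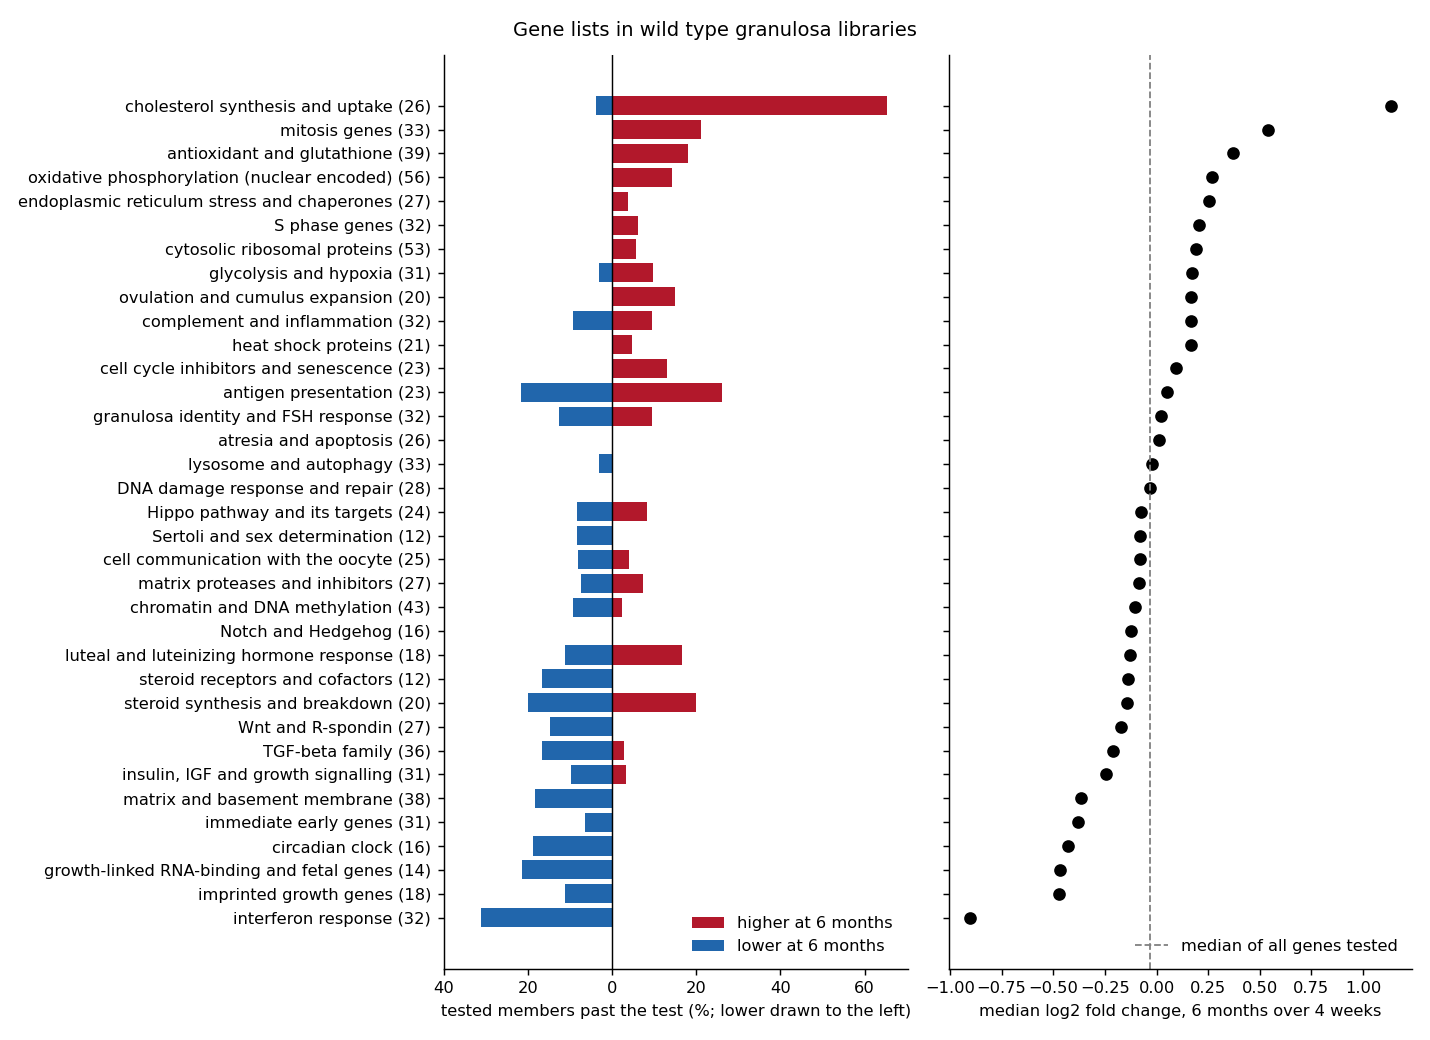
For 35 gene lists (number of tested members in brackets), the share of members higher or lower at 6 months in wild type granulosa cells past the test (left panel, %) and the median log2 fold change of the tested members (right panel, points; dashed line, the median of all genes tested, -0.03). Cholesterol genes stand at the top with a median of 1.14 and interferon genes at the bottom with -0.91.

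The knockout libraries of the same 2 ages give a second reading of the interval. There 1970 genes differed between 6 months and 4 weeks (13.8%), 941 higher and 1029 lower. In both genotypes 471 genes were called in the same direction, which is 41.2% of the wild type calls and 23.9% of the knockout calls, and 7 were called in opposite directions. The change itself differed between knockout and wild type for 94 genes (0.657%), 27 of them among the 1144, and for 58 genes without 4 week wild type replicate 6. Lhcgr was one of the 94, with a log2 change of 2.54 ± 0.52 in knockout and -1.07 ± 0.38 in wild type (difference 3.60 ± 0.65, adjusted p = 0.00231). Oxtr changed by 0.96 ± 0.40 in knockout and -1.27 ± 0.32 in wild type (difference 2.23 ± 0.51, adjusted p = 0.0222). Greb1 changed by -1.50 ± 0.21 in knockout and -1.46 ± 0.17 in wild type, and the difference did not pass (-0.03 ± 0.27, adjusted p = 0.977).

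At the intermediate age, 7 weeks, edgeR called no gene against 4 weeks in wild type libraries (1357 of 14307 genes had an unadjusted p under 0.05). Between 6 months and 7 weeks it called 194 genes (1.36%). The 7 week group holds 5 libraries, enters both of these steps, and came in a table of its own. Its oocyte marker share was 14.2 to 306 per 1000000, and 3 of its 5 libraries lay above 200 per 1000000. Greb1 averaged 729 ± 236 CPM at 4 weeks, 491 CPM at 7 weeks (range 269 to 601) and 265 ± 51.8 CPM at 6 months (± SD, n = 7 and 12). Cyp51 averaged 72.7 ± 31.7 CPM at 4 weeks, 111 CPM at 7 weeks (range 72.9 to 175) and 275 ± 97.9 CPM at 6 months. For both genes the 7 week mean lay between the others. Hsd3b1 averaged 5961 ± 2509.8 CPM at 4 weeks, 6108 CPM at 7 weeks (range 3596 to 8351) and 2681 ± 664 CPM at 6 months, and Star averaged 375 ± 207 CPM at 4 weeks, 421 CPM at 7 weeks (range 237 to 544) and 837 ± 398 CPM at 6 months. The 7 week range of Hsd3b1 lay within that of the 4 week libraries, 3261 to 9580.3 CPM.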

How the data were processed

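RNA of granulosa cells was sequenced with Smart-seq2, which amplifies full-length cDNA and keeps no strand, per the labels' protocols, so reads of overlapping genes cannot be told apart. The submitters' processing notes name STAR, Partek, DESeq2 and mm10, with no versions. The gene annotation behind the counts is not given in the sources used here. The authors deposited 1 table of estimated counts per gene for each age, with no normalization. In a library, 5.79% to 18.89% of the values were not whole (tolerance 0.001) and were rounded. Each table leaves out genes with very low totals.

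Genes listed in all 3 granulosa tables (16728) were joined by symbol and filtered with filterByExpr, which left 14307. The quasi-likelihood test of edgeR 4.0.16 (R 4.3.3) was fitted with TMM scaling and robust dispersions on all 42 granulosa libraries, with a mean for each of the 6 groups of genotype and age, so that all groups share 1 estimate of the spread. A gene was called at a Benjamini-Hochberg adjusted p under 0.05 over all genes tested. The adjusted p-values in the text are from this fit unless another test is named. Standard errors were derived from the same fit. Summed marker shares, per 1000000 counts of a library, were compared by an exact permutation test over samples, two-sided, with adjustment over 11 lists, and library measures with adjustment over 4. On counts simulated for this comparison (14013 genes in the fit), 50 of 100 genes changed 2-fold and 80 of 100 changed 4-fold were called. The simulated counts gave 132 calls in all, against 1144 in the data. The adjusted threshold therefore lay at a smaller unadjusted p there, and the rates may differ in the data.

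Gene lists, libraries and marker lists were chosen with earlier results of these data known. Genes named are Esr2 and Esr1, the 12 with the smallest p in each direction among called genes that average 5 CPM or more in one of the groups (clone-named loci, pseudogenes and mitochondrial genes left out), and up to 4 called members of each list, or up to 2 with the smallest p where fewer than 2 were called. Other genes were named after their values were seen. The B cell list, the sets of libraries left out together, the length trends and the B cell covariate were also added after the data were seen. Locations and lengths come from GENCODE vM21 (GRCm38), promoter windows from RefSeq. Alternatives with DESeq2 1.42.0, limma 3.58.1 voom, other scalings, filters, covariates and left-out libraries are given at the end. Values of 7 genes are not reported here; they stay in the tests and in the counts over lists.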

Additional observations from a re-analysis of the deposited data

Results flagged for a closer look

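In a group of 4 to 10 libraries, a library was singled out when its gap to the nearest other, divided by the range of the group, exceeded Dixon's 95% critical value for its number of libraries. The test was run over 161 named genes, 12 marker lists and 4 library measures in the 4 week group, and chance alone marks about 1 group in 20. It marked 13 genes and 2 marker lists. In 4 week replicate 5 Esr2 was 11.2 CPM, Lss 7.60 CPM and Stard4 11.2 CPM, each the lowest of the group, and Atp5o, a subunit of ATP synthase, was 492 CPM. In replicate 6 Smoc1 was 13.8 CPM, Smad7 8.90 CPM and Ddx58 25.4 CPM, and the oocyte marker share was 872 per 1000000, the highest of the group. In replicate 3 Fshr was 3.10 CPM, Plaur 1.86 CPM, Ndufs8 107 CPM and Gstm2 32.9 CPM. Acat2 was 140.4 CPM in replicate 2, and Vgll4 was 89.9 CPM and the surface epithelium share 244 per 1000000 in replicate 1.

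The change between 6 months and 4 weeks differed between knockout and wild type libraries, by the contrast of the 2 changes in the edgeR fit (6 and 7 knockout, 12 and 7 wild type libraries), for 7 of the named genes. The knockout minus wild type difference of log2 fold changes was 3.60 for Lhcgr (adjusted p = 0.00232), 2.23 for Oxtr (adjusted p = 0.0222), 2.20 for Cyp11a1 (adjusted p = 0.0368), 1.26 for Rora (adjusted p = 0.00711) and 1.16 for Fdps (adjusted p = 0.0256). It was -2.44 for Thbs1 (adjusted p = 4.948e-04) and -1.28 for Tcf7l2 (adjusted p = 0.0394).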

How the results depend on the processing

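Of 161 named genes, 138 were called, and 46 of these kept their call under all 39 alternatives. The 1144 called genes (454 higher, 690 lower) became 506 (275 and 231) with the replicate number as a block, 675 (273 and 402) with libraries thinned to 1 total, 512 (203 and 309) with the oocyte share as a covariate, 521 (186 and 335) with the B cell share as a covariate and 335 (95 and 240) without the 4 week libraries 3, 5 and 6. DESeq2 called 1623, 1041 of them lower, and limma voom called 1135, with 608 higher and 527 lower. With 1 library left out the count ran from 674 (241 and 433, without 4 week replicate 7) to 1614 (675 and 939, without 4 week replicate 1). The replicate numbers do not pair the libraries: correlations of same-numbered libraries ran from -0.24 to 0.15.

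The 94 genes whose change differed between genotypes became 177 with DESeq2, 53 with limma voom and 23 with the block, and 58 to 127 with 1 library left out. With the B cell share as a covariate, 1135 of the 1144 called genes kept their sign, and of the named calls 3 changed it: Ms4a1 (-0.27), H2-DMa (-0.27) and Ighm (-0.14). The surface epithelium difference was 0.57 on the log2 scale, 0.65 over TMM library sizes, and 0.42 to 0.65 with 1 library left out; the oocyte difference ran from -1.57 to -0.62. The difference in genes detected ran from -1113.8 to -458.5, and that of the length tilt from -0.18 to -0.12. The cause of these shifts was not tested.

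At these depths 50% of the genes simulated with a 2-fold change were called.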

Other observations

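Some genes had counts in 1 of the 2 tables and no row in the other, so they were in no test; they were looked up after the values were seen. Mcpt4 and Cpa3, proteases of mast cells, had 366 and 254 counts over the 6 month libraries, in 8 and 7 of the 12, with 224 and 126 of these counts in replicate 4. Ighd, the heavy chain of immunoglobulin D on naive B cells, had 446 counts, with some in all 12 libraries. In the 4 week libraries Zp1, Zp2 and Zp3, the genes of the egg coat, had 139, 190 and 245 counts, of which 135, 184 and 233 were in replicate 6. Nobox, a transcription factor of oocytes, had 82 counts, 75 of them in replicate 6.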
